A study of Homo sapiens with 4 samples.

Results

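The transcripts described here are the mRNAs of 5 human genes linked to cytosolic translation. Among them are the elongation factors EEF2 and EEF1A1, the initiation factor EIF1 and GNB2L1 (now named RACK1), a protein of the small ribosomal subunit. The other is TPT1, which encodes the translationally controlled tumour protein. All 5 were selected on their measured binding sites and reads in the fPAR-CLIP data. The numbers of their sites and reads are therefore given as a description. Every nuclear binding site that a list assigned to 1 of the 5 gene names was taken, which gave 39 of 2341 sites, 32 of them in the GTPBP8::FLAG lists and 7 in the AUH::V5 list. The 5 genes are among 1257 nuclear genes with a site in any library.

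The study asked which RNAs GTPBP8, a GTP-binding protein of mitochondria, contacts in cells. fPAR-CLIP (a fluorescent form of photoactivatable ribonucleoside crosslinking and immunoprecipitation) was performed on GTPBP8::FLAG in 3 biological replicates, and on AUH::V5, an RNA-binding protein of mitochondria that served as the comparison, in 1 library. Both tagged proteins were overexpressed from a stable, doxycycline-inducible (Tet-ON) system in HEK293 T-REx cells, a human embryonic kidney line (50 ng/ml doxycycline, 48 h). Cells of both groups were given 4-thiouridine (4SU, 100 µM, 16 h) and irradiated at 312 nm for 5 min, and the crosslinked RNA was trimmed with RNase T1, which cuts after G. Whole cells were lysed, so cytosolic mRNAs and the tagged proteins were in 1 lysate during the immunoprecipitation. The cells were irradiated before this step, and whether contact in the lysate contributed to any site was not tested. No library from cells without a tagged protein was analysed here. A crosslinked 4SU leaves a T-to-C conversion in the cDNA, and the percentage of reads at a site with such a conversion is called the converted share.

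Elongation factors act at every codon that a ribosome reads: eEF1A brings aminoacyl-tRNA to the ribosome and eEF2 moves tRNAs and mRNA on by a codon. Their mRNAs are among the most abundant in growing human cells. Together with most ribosomal protein mRNAs, several of them begin with a C followed by a run of pyrimidines, the 5′ terminal oligopyrimidine (5′ TOP) motif through which their translation follows mTOR signalling. These proteins act in the cytosol, whereas GTPBP8 and AUH are mitochondrial.

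The lists held 440, 716 and 426 sites in GTPBP8 replicates 1, 2 and 3 and 759 in AUH. Nuclear sites took up 26677, 32665 and 31107 reads in the GTPBP8 libraries (6.62%, 5.20% and 7.72% of all site reads) and 7795 reads in AUH (80.5%). The remaining reads lay in mtDNA sites. Because of this gap, values are given per 1000000 nuclear site reads (nuclear CPM) unless all site reads are named as the denominator (CPM of all site reads). The smallest listed site had 5 reads in each GTPBP8 library, which is a nuclear CPM of 187, 153 and 161, and 4 reads in AUH, which is 513. A gene without a site is therefore not a gene with 0 reads, and a weakly covered gene can be missed more easily in AUH. The 95% intervals are Wilson intervals of the counting error alone. The levels of the mRNAs were not measured, so no value is per mRNA molecule.

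Of the 32 GTPBP8 sites, 10 overlapped a site of the same gene in another GTPBP8 replicate by at least 1 nt, at 5 places, and none of the places was found in all 3 replicates. The sequences of these 5 places show which bases were bound repeatedly, so they are printed here from the deposited lists, 5′ to 3′ in the sense of the mRNA, with the bases that were covered in both replicates in capitals (GRCh38). Where the replicates differed in length, the longest site of at most 30 bases is shown. Of EEF2 on the minus strand, these were a 5′ UTR site of replicates 1 and 2 (chr19:3985425-3985452), a coding site of replicates 2 and 3 (chr19:3976561-3976590) and a 3′ UTR site of replicates 2 and 3 (chr19:3976364-3976386). Of EIF1 on the plus strand, they were a 3′ UTR site of replicates 2 and 3 (chr17:41691446-41691475) and another of replicates 1 and 3 (chr17:41691606-41691630).
EEF2 5′ UTR: TCGTCGCCGCCATCCTCGGCGCGACTCG
EEF2 coding: caTCCCTGCCCTGGACAACTTCCTGGACAA
EEF2 3′ UTR: TTTCTTTCAATATTTATTTCCAG
EIF1 3′ UTR, upstream: ttAAACTTTTGACAAGGGAACAAATCTCAA
EIF1 3′ UTR, downstream: TATTTAAACCCTTATTTAAATAAAA
The letters of both EEF2 5′ UTR sites are the same as those of RefSeq at these positions. The EEF2 5′ UTR place was GC-rich (A+T share of 25% in replicate 1), while the downstream EIF1 place had an A+T share of 88%, so the repeated sites had no common base composition.

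The other genes had no place bound in more than 1 GTPBP8 replicate. To show their sites, and those of AUH for comparison, the site of at most 30 bases nearest the gene start is printed with every T, the letter at which 4SU can be incorporated and converted, in capitals. The GTPBP8 sites are from EEF1A1 in replicate 3 (chr6:73517180-73517208, minus strand), GNB2L1 in replicate 2 (chr5:181243833-181243861, minus strand) and TPT1 in replicate 1 (chr13:45341078-45341103, minus strand). The AUH sites are from EEF2 (chr19:3976648-3976676, minus strand), EIF1 (chr17:41691180-41691204, plus strand) and GNB2L1 (chr5:181242313-181242340, minus strand), the last of which the list also names SNORD96A.
EEF1A1 3′ UTR, GTPBP8: aaTcTTTggaaacaaaaTgTTTccaaaTT
GNB2L1 5′ UTR, GTPBP8: TTTcTcTaagccaTccagTgccaTccTcg
TPT1 5′ UTR, GTPBP8: cTagcgccgTcgTcgTcTcccTTcag
EEF2, AUH: aTccTgcccggagaccccTTcgacaacag
EIF1 3′ UTR, AUH: aaTgTTaccaccTgaacagTccTcg
GNB2L1 coding, AUH: accaTcaTcaTgTggaaacTgaccaggg

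Together, the 5 genes held 8, 14 and 10 sites with 81, 233 and 84 reads in GTPBP8 replicates 1, 2 and 3, and 7 sites with 44 reads in AUH. This is 0.304%, 0.713% and 0.270% of the nuclear site reads of the GTPBP8 libraries and 0.564% of those of AUH (95% interval 0.421% to 0.757%). Replicate 2 was the highest and AUH lay between replicates 1 and 2, so the groups overlapped on this scale. The mean nuclear CPM was 4289.9 ± 2468 with GTPBP8 (SD, n = 3 libraries), against 5645 in the AUH library, and the ratio of a GTPBP8 library to AUH was 0.538, 1.26 and 0.478. At 2 of the 7 AUH sites, both in GNB2L1, the entry also names the small nucleolar RNA gene SNORD96A. Without these 2 sites AUH stood at 4233 in nuclear CPM, still between GTPBP8 replicates 1 and 2, and the GTPBP8 mean was 1.01 times that value. RefSeq places SNORD96A 375 and 423 nt away from the 2 sites, so leaving them out may remove reads of the mRNA. A TPT1 site of 17 reads inside another small nucleolar RNA gene, SNORA31B, stayed in the total of GTPBP8 replicate 2.

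The comparison looked different when all site reads were the denominator. The 5 genes then had a CPM of all site reads of 201, 371 and 208 with GTPBP8 (mean 260.2 ± 96.2, SD, n = 3 libraries) and 4544 with AUH. All 3 GTPBP8 libraries lay below AUH here, at a ratio of 0.0573 ± 0.0212 (SD, n = 3 libraries). The share of mtDNA reads in each library, given above, enters this ratio, while it does not enter the nuclear CPM.

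EEF2, EIF1 and GNB2L1 had a site in all 4 libraries. A site in every library was found for 14 of the 1257 nuclear genes (1.11%), and a site in every GTPBP8 library for 50 of 821 genes (6.09%), among which were the same 3 genes. TPT1 had sites in GTPBP8 replicates 1 and 2, and EEF1A1 in replicates 2 and 3. Neither had a site in AUH. Since sites and reads chose the genes, these counts are printed beside the shares for all genes without a comparison.

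**Figure D1:**
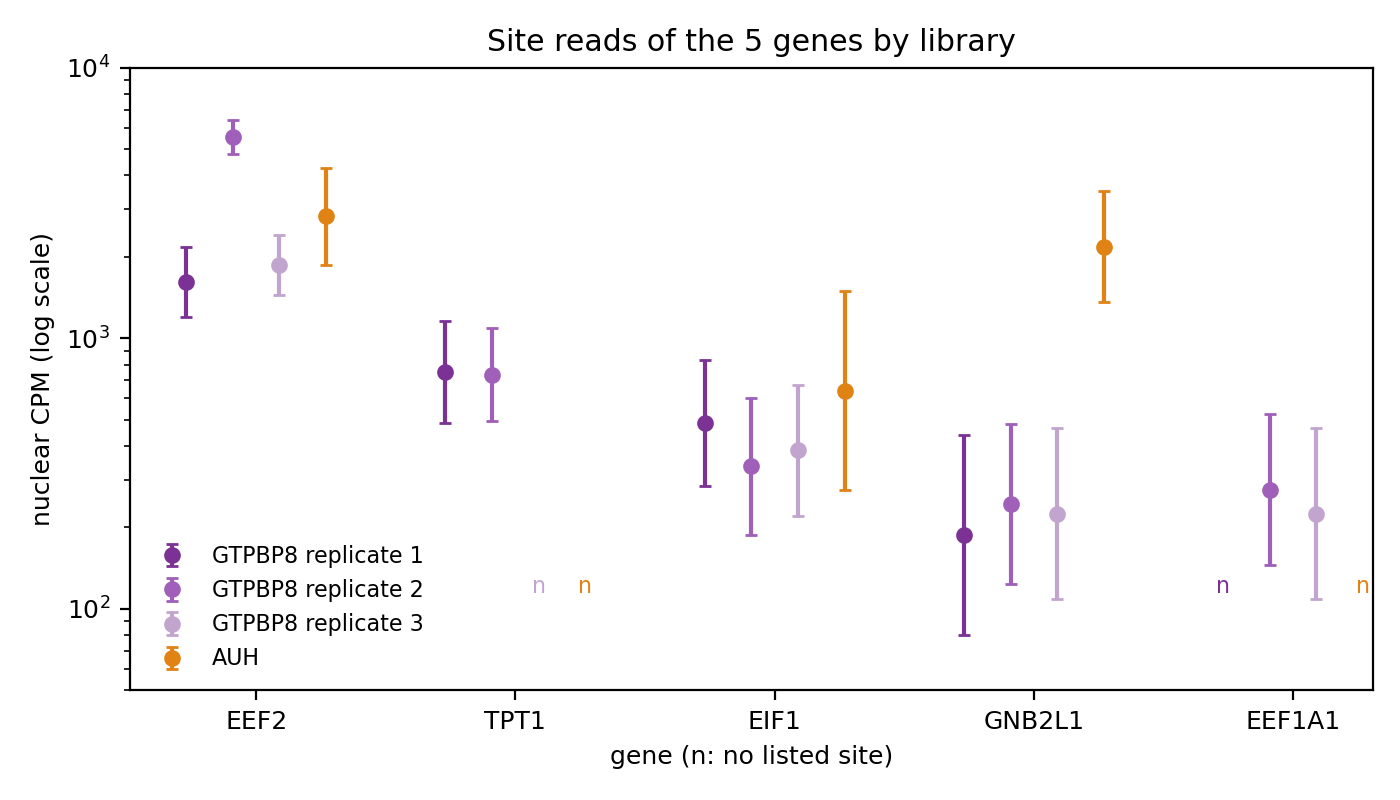
Reads at the sites of each gene per 1000000 nuclear site reads (nuclear CPM, log axis) in the 3 GTPBP8::FLAG replicates and the AUH::V5 library, with 95% Wilson intervals of the counting error; n marks a library without a listed site. EEF2 was highest in GTPBP8 replicate 2, and GNB2L1 was at 2181 with AUH against 187 to 245 with GTPBP8.

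EEF2, the translocation factor of elongation (chr19:3976056-3985463, minus strand), carried most of the reads of the 5 genes. It had 43, 181 and 58 reads in GTPBP8 replicates 1, 2 and 3, at 4, 9 and 6 sites, and 22 reads at 3 sites in AUH. This made up 53.1%, 77.7% and 69.0% of the reads of the 5 genes in the GTPBP8 libraries and 50% in AUH.

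In nuclear CPM, EEF2 stood at 1612, 5541 and 1865 with GTPBP8 and 2822 with AUH. The intervals of replicates 1 (1197 to 2170) and 3 (1443 to 2409) overlapped each other and that of AUH (1865 to 4269.8), while that of replicate 2 (4792 to 6406) lay above all of them. The GTPBP8 mean of 3006 ± 2199 (SD, n = 3 libraries) thus had an SD close to its own size, and the mean was 1.07 times the AUH value. Per covered nucleotide, EEF2 had 0.339, 0.599 and 0.352 reads with GTPBP8 and 0.185 with AUH, a scale that depends on the depth of each library.

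The rank of EEF2 among nuclear genes is given as a description, since its sites and reads chose it. About 9 in 10 genes of a GTPBP8 library had a single site (89.7%, 91.5% and 90.7%). In each of the 3 GTPBP8 libraries only 1 nuclear gene, the long noncoding RNA gene XIST, had more sites than EEF2, and in replicate 1 another 2 genes, TMBIM6 and NACA, had as many. By reads, 28 of 271, 12 of 505 and 32 of 269 genes had more than EEF2. In AUH, 7 genes had more sites and 7 had as many.

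The EEF2 sites ran along the mRNA from the 5′ UTR to the end of the 3′ UTR. Of the 19 GTPBP8 sites, 2 were annotated as 5′ UTR, 11 as coding and 6 as 3′ UTR, with 6 to 63 reads each. The 5′ UTR sites of replicates 1 and 2 spanned positions 12 to 39 and 9 to 39 from the RefSeq start, and replicate 3 had none there. The 6 sites in the 3′ UTR ended 43 to 308 nt before the end of the gene, and they held 48.8%, 53.6% and 13.8% of the EEF2 reads in replicates 1, 2 and 3. Coding sites held 30.2%, 34.8% and 86.2%, so replicate 3 differed from the other replicates in where its EEF2 reads lay.

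The largest EEF2 site lay in the 3′ UTR in replicate 2 (chr19:3976263-3976300) and had 63 reads, 40 distinct read sequences and 9 positions with a conversion. Its converted share of 44.4% was among the lowest of EEF2, whose 19 GTPBP8 sites ranged from 40% to 100% with a median of 75%. Without the largest site of each library, EEF2 was at a nuclear CPM of 1125, 3612 and 1447, and replicate 2 was still the highest. The repeated coding place (chr19:3976561-3976590) had 18 and 13 reads in replicates 2 and 3, with converted shares of 55.6% and 46.2%. The repeated 5′ UTR place had 9 and 21 reads in replicates 1 and 2, with converted shares of 88.9% and 81.0%.

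The 3 AUH sites of EEF2 had 11, 5 and 6 reads and were annotated by the AUH list as intron. They did not overlap a GTPBP8 site, and the nearest GTPBP8 sites were 57, 234 and 21 nt away and annotated as coding. The AUH site of 6 reads (chr19:3976648-3976676) lay between GTPBP8 sites annotated as coding (chr19:3976561-3976590 and chr19:3976698-3976727). The lists for the 2 proteins have different layouts and annotations, so this difference in label cannot be told apart from a difference between lists. The intron label is therefore not read as contact of AUH with EEF2 introns.

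**Figure D2:**
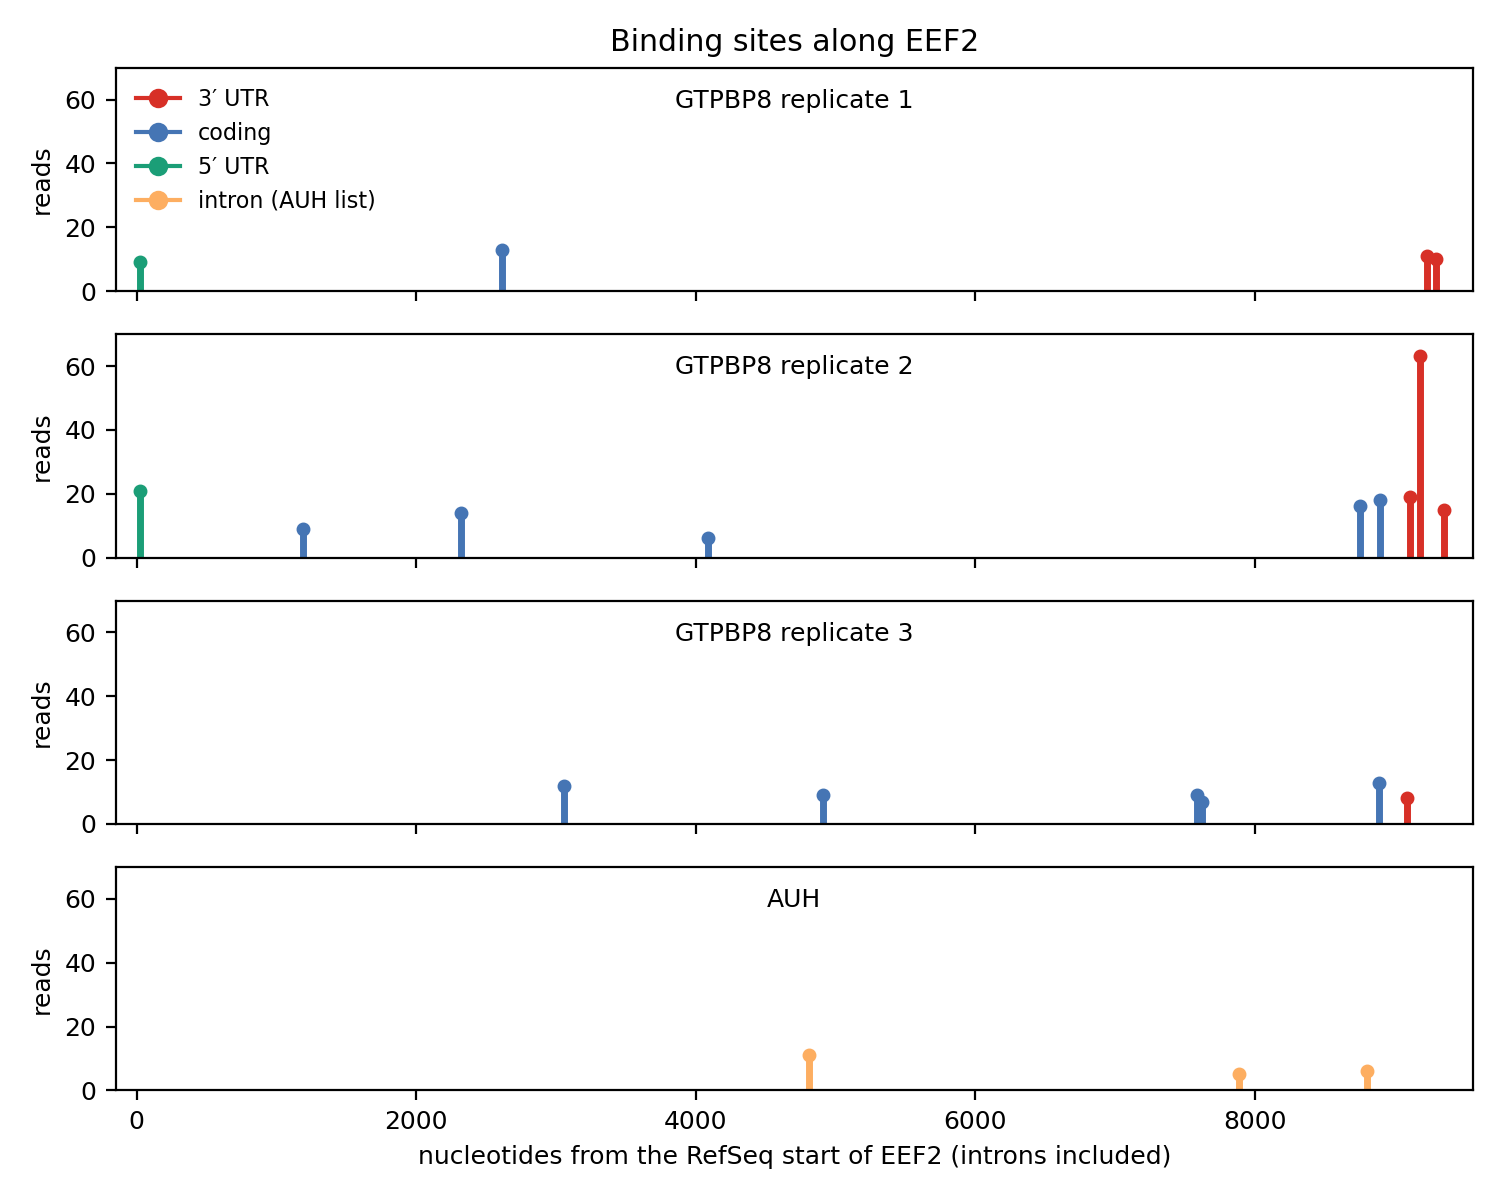
Binding sites along EEF2 in each library, placed by their midpoint in nucleotides from the RefSeq gene start with introns included, with the reads at each site as the height and the annotation of the list as the colour. The 3′ UTR sites of the GTPBP8 replicates end 43 to 308 nt before the end of the gene, the largest has 63 reads in replicate 2, and the 3 AUH sites lie outside the UTRs.

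EEF1A1, the factor that delivers aminoacyl-tRNA (chr6:73515750-73521032, minus strand), had 1 coding site of 9 reads in GTPBP8 replicate 2 and 1 site of 7 reads in the 3′ UTR in replicate 3. These were a nuclear CPM of 276 and 225. The 2 sites did not overlap. Although the mRNA is very abundant in human cells, its values lay near the smallest that a list could hold. EEF1A1 has many processed copies in the genome with nearly the same sequence, so reads may have been split among them and the values are uncertain; the AUH list holds 1 site of 5 reads under the name of such a copy, EEF1A1P24, and none under EEF1A1.

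EIF1, which takes part in the choice of the start codon (chr17:41688885-41692668, plus strand), had GTPBP8 sites in the 3′ UTR alone, each of which overlapped a site of another replicate. It had 13, 11 and 12 reads in GTPBP8 replicates 1, 2 and 3 and 5 reads in AUH. The 4 GTPBP8 sites lay at 2 places of the 3′ UTR: the upstream place was found in replicates 2 (11 reads) and 3 (5 reads), and the downstream place, with identical ends, in replicates 1 (13 reads) and 3 (7 reads). The converted shares at these 4 sites ran from 63.6% to 100%.

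In nuclear CPM, EIF1 stood at 487, 337 and 386 with GTPBP8 (mean 403 ± 76.8, SD, n = 3 libraries) and at 641 with AUH. The GTPBP8 replicates were close to each other and all below AUH, but the AUH value rests on 1 site of 5 reads. Its interval (274 to 1501) included all 3 GTPBP8 values. All 3 were also under 513, the smallest nuclear CPM listed in AUH, so any AUH site would have been above them. The AUH site was also in the 3′ UTR, 241 nt from the nearest GTPBP8 site.

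GNB2L1, which encodes the scaffold protein RACK1 of the small ribosomal subunit (chr5:181236897-181243906, minus strand), had 5, 8 and 7 reads at 1 site in each GTPBP8 replicate. In AUH it had 17 reads at 3 sites. The nuclear CPM of 187, 245 and 225 with GTPBP8 (mean 219 ± 29.2, SD, n = 3 libraries) were all below the AUH value of 2181 (95% interval 1362 to 3490.1), at a mean ratio of 0.100. Much of the AUH value came from the 2 sites that also carry the name SNORD96A, which RefSeq places 375 and 423 nt away from them. The AUH site named for GNB2L1 alone had 6 reads, a nuclear CPM of 769.7 (95% interval 353 to 1678). The GTPBP8 replicates were still below it, at a mean ratio of 0.285, but the intervals overlapped. As all GTPBP8 values were under 513, the smallest nuclear CPM listed in AUH, any AUH site would have been above them.

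The 3 GTPBP8 sites of GNB2L1 were all at different places. They were annotated as coding in replicate 1 (122 to 152 nt from the RefSeq start), as 5′ UTR in replicate 2 (46 to 74 nt) and as a mix of intron and coding in replicate 3 (1685 to 1709 nt). The AUH sites, all annotated as coding, lay 5, 42 and 90 nt from the nearest GTPBP8 site, so both proteins had sites in the same stretches of the mRNA without overlap. Both ends of the comparison are near the limits of the lists: the lowest GTPBP8 site had 5 reads, the smallest number listed. Of the 14 genes found in all 4 libraries, 4 (28.6%) lay below AUH in all 3 GTPBP8 libraries, namely GNB2L1, EIF1, SON and XIST. Another 4 (28.6%) lay above AUH in all 3, namely ATRX, ENO1, KIAA0907 and UHRF1BP1, none of them among the 5 genes. The GTPBP8 values of GNB2L1, EIF1 and SON were all under a nuclear CPM of 513, that of the smallest site listed in AUH. Any listed AUH site would have put these genes below AUH, so their direction followed from this limit.

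The AUH order of EEF2 and GNB2L1 depended on how reads were counted. With reads taken as converted reads divided by their fraction, EEF2 had 22 and GNB2L1 17. The deposited column of total reads, which at some sites is a whole multiple of that quotient, summed to 22 for EEF2 and 63 for GNB2L1.

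TPT1, a protein named for the control of its own translation (chr13:45333471-45341183, minus strand), had 20 reads at 2 sites in GTPBP8 replicate 1 and 24 reads at 2 sites in replicate 2. These were a nuclear CPM of 749.7 and 735, while replicate 3 had no site. The reads came from different places, namely the 5′ UTR (81 to 106 nt from the RefSeq start, 8 reads) and a coding site (410 to 448 nt, 12 reads) in replicate 1 and 3′ UTR sites of 7 and 17 reads in replicate 2. The 17-read site (chr13:45336326-45336364) lay with all of its 39 nt inside the small nucleolar RNA gene SNORA31B as RefSeq places it, so reads of the mRNA and of that RNA cannot be told apart there. Without that site TPT1 had 7 reads in replicate 2, a nuclear CPM of 214, which was lower than in replicate 1 and lower than EIF1 (337), EEF1A1 (276) and GNB2L1 (245) in replicate 2. No other of the 39 sites overlapped a small nucleolar RNA gene.

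**Figure D3:**
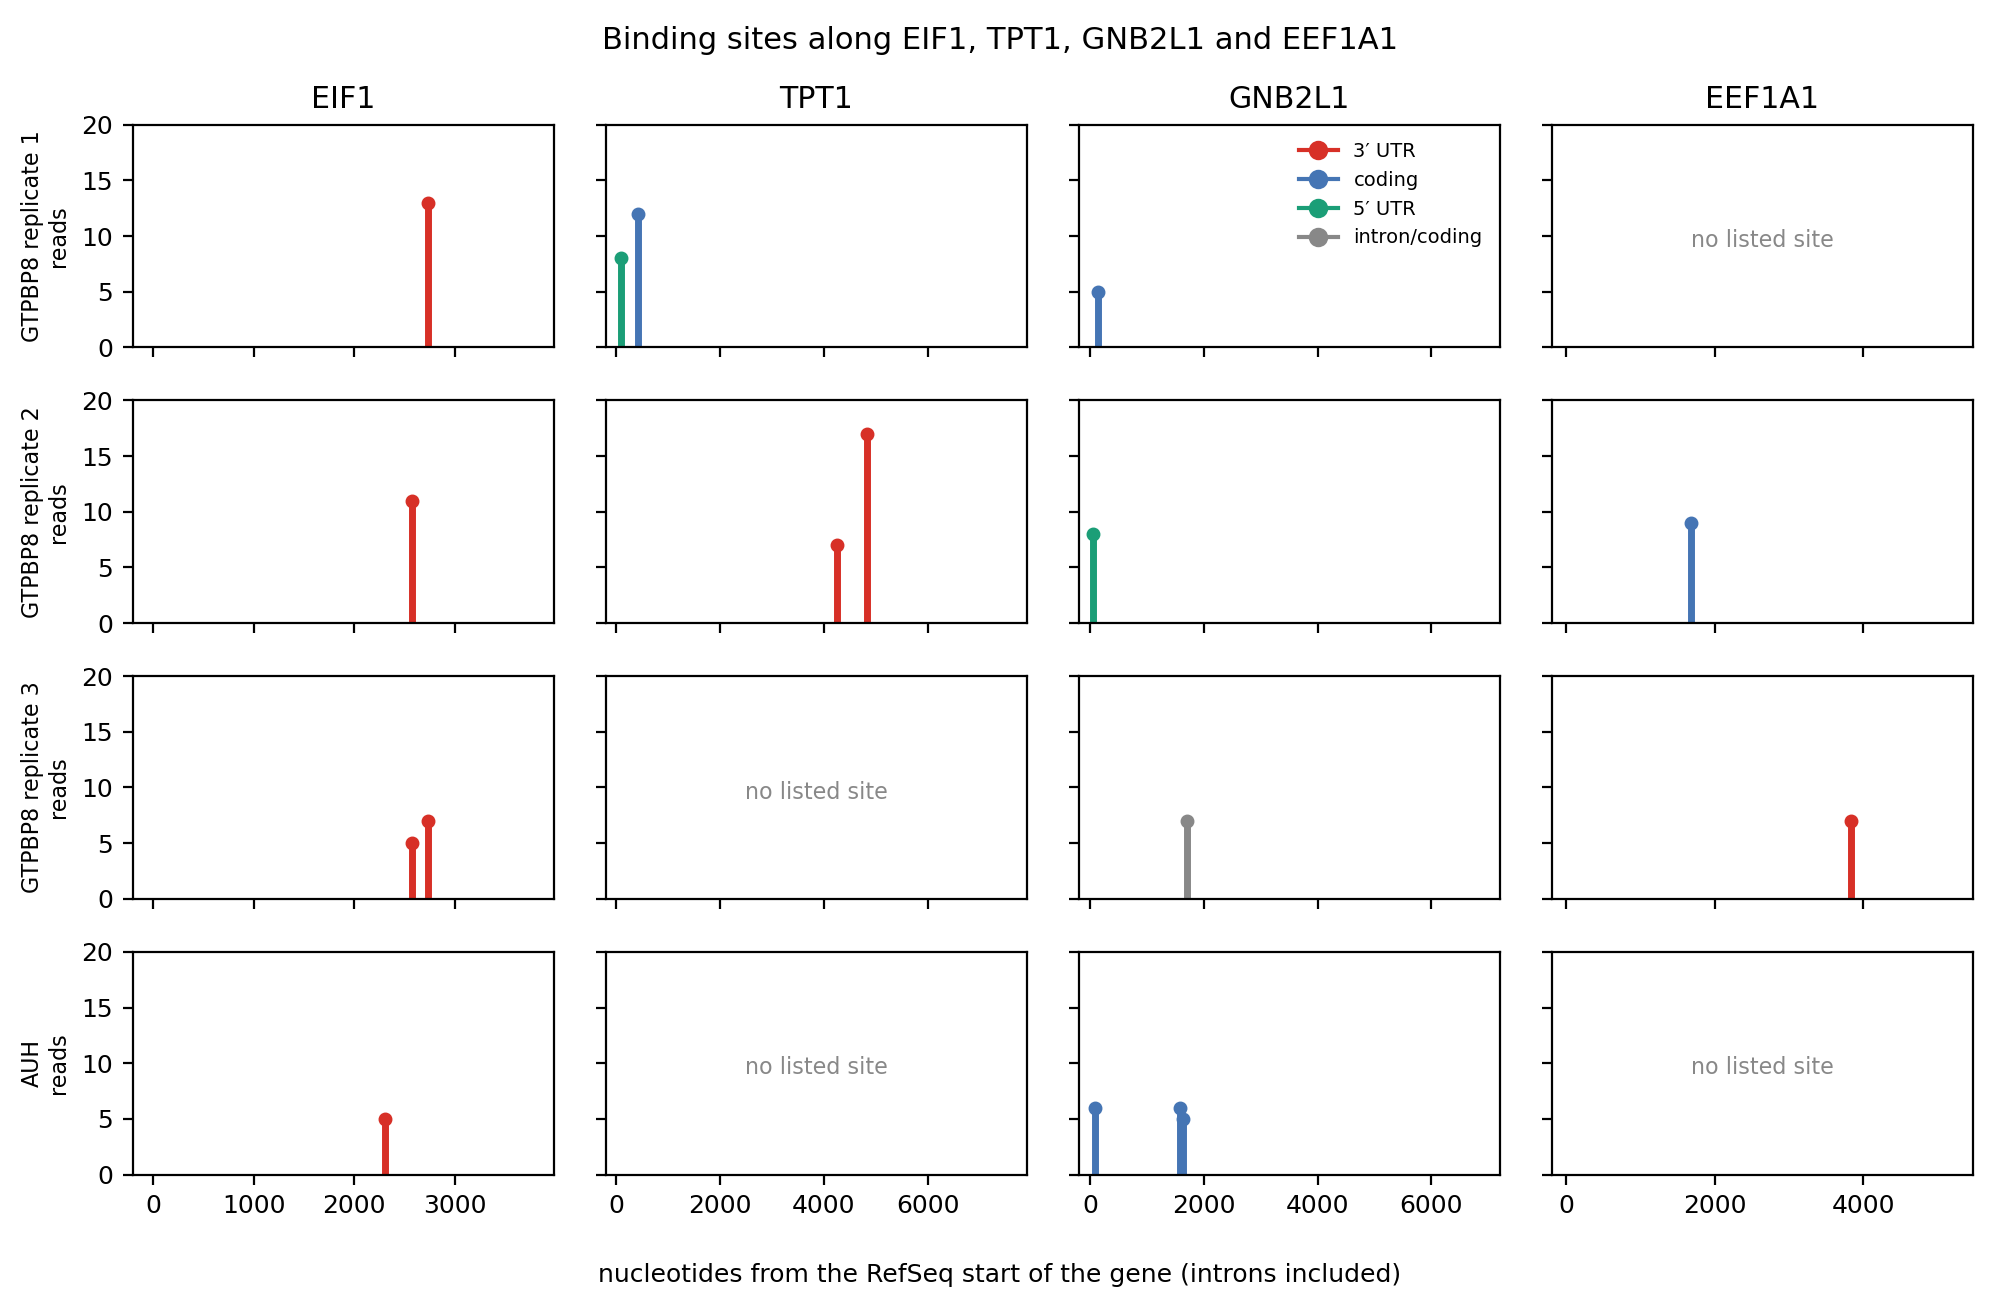
Binding sites along EIF1, TPT1, GNB2L1 and EEF1A1 (columns) in each library (rows), by nucleotides from the RefSeq gene start with introns included and reads at each site, coloured by annotation. The EIF1 sites of the GTPBP8 replicates share 2 places in the 3′ UTR, whereas those of the other 3 genes were each found in 1 replicate.

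Overlap between GTPBP8 replicates was found for 25%, 28.6% and 40% of the sites of the 5 genes in replicates 1, 2 and 3 (mean 31.2 ± 7.84%, SD, n = 3 libraries). For the other nuclear mRNA sites it was 22.8%, 14.4% and 24.0% (mean 20.4 ± 5.26%). The share was higher for the 5 genes in each library, but it rested on 2 to 4 overlapping sites a library, all of them in EEF2 or EIF1, and it was not tested because the genes were chosen on their sites. The order held without replicate 1 (25.7% against 12.9%) but not under 3 other settings. Among sites with at least 10 reads the mean share was 20.4 ± 26.3% for the 5 genes and 33.7 ± 12.3% for the other mRNA sites (SD, n = 3 libraries). It was 11.2% against 11.5% without replicate 2, and 9.82% against 13.7% without replicate 3. None of the 32 GTPBP8 sites overlapped an AUH site. A count of 0 of 32 allows a share of up to 9.38% by counting error alone, a limit that takes the sites as independent although 10 of them lie at 5 shared places. Of the other nuclear mRNA sites, 0 of 184, 3 of 348 and 1 of 150 did.

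By annotation, the 32 GTPBP8 sites were in the 5′ UTR (4), coding sequence (14) and 3′ UTR (13), apart from the GNB2L1 site of mixed annotation. The 5 genes held 2 of 15, 2 of 20 and 0 of 7 nuclear 5′ UTR sites in replicates 1, 2 and 3. They held 3 of 93, 6 of 181 and 5 of 75 coding sites, and 3 of 84, 6 of 161 and 4 of 77 sites in the 3′ UTR. Sites in the 5′ UTR were few in every library, so their share among the sites of the 5 genes rests on 4 sites.

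The converted share, the A+T share and the reads per distinct read sequence were compared with those of the other sites in mRNA (5′ UTR, coding or 3′ UTR) of the same library, and the library was taken as the unit. None of the 3 was itself used to choose the genes, but the converted share and the reads per distinct sequence are computed from the reads that were, so they are not independent of that choice. With 3 libraries, the two-sided exact sign-flip test cannot give a p below 0.25, and 3 measures were tested. The median converted share was 76.4%, 65.5% and 88.2% at the sites of the 5 genes in replicates 1, 2 and 3, against 89.4%, 100% and 96.4% at the other mRNA sites. It was lower for the 5 genes in 3 of 3 libraries, by 18.6 ± 14.0 percentage points on average (SD, n = 3 libraries, exact sign-flip p = 0.25, adjusted 0.25), which does not pass a threshold of 0.05. Without the EEF2 sites the mean difference was -14.9 ± 18.5 percentage points (SD, n = 3 libraries, exact sign-flip p = 0.5). Against every other nuclear site it was -12.2 ± 13.5 (exact sign-flip p = 0.5). Under these 2 settings the libraries did not all go the same way, since p would then be 0.25. In AUH it was 36.4% against 100%, but the 2 sets differ in label. Every site of the 5 genes was kept, and the 3 EEF2 sites of AUH were labelled intron, a label left out of the other sites. By label, the AUH medians of the 5 genes were 36.4% at these 3 sites, 33.3% at 3 coding sites and 100% at 1 site in the 3′ UTR. The GNB2L1 site of mixed annotation in replicate 3 was kept in the same way.

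The number of reads per site moved with this difference. The median site of the 5 genes had 10.5, 14.5 and 7.5 reads in replicates 1, 2 and 3, against 6, 7 and 6 at the other mRNA sites. Among sites with at least 10 reads, the median converted share was 72.7%, 63.2% and 56.4% at 5, 9 and 2 sites of the 5 genes, against 76.5%, 75% and 78.6% at the others, so the difference remained below 0 in each library, at a mean of -12.6 percentage points (exact sign-flip p = 0.25).

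The A+T share of the sites was also lower in 3 of 3 libraries. Its median was 40.2%, 48.3% and 43.7% for the 5 genes and 54.8%, 56.9% and 58.5% for the other mRNA sites, a mean difference of -12.7 ± 3.50 percentage points (SD, n = 3 libraries, exact sign-flip p = 0.25, adjusted 0.25). Without the EEF2 sites the mean difference was -1.23 ± 15.0 percentage points (SD, n = 3 libraries, exact sign-flip p = 0.75), so it rested mostly on EEF2. By gene, the median A+T share over the GTPBP8 sites was 42.9% for EEF2 (range 22.6% to 78.3%), 36% for GNB2L1 and 47.4% for TPT1, but 79% for EIF1 and 70.7% for EEF1A1.

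By annotation, the median A+T share of coding sites was 39.4%, 42.1% and 43.3% for the 5 genes in replicates 1, 2 and 3, against 50%, 51.7% and 51.5% for the other sites. In the 5′ UTR it was 29.8% and 35.4% in replicates 1 and 2, against 52% and 49.1%, at 2 sites of the 5 genes in each. In the 3′ UTR it was 72.4%, 54.3% and 77.1%, against 59.4%, 63.3% and 64.5%. The medians for the 5 genes were thus lower in coding sequence and 5′ UTR in each library with sites. In the 3′ UTR they were higher in replicates 1 and 3 and lower in replicate 2. EEF2 held 11 of the 14 coding sites, among them all 5 of replicate 3, so the coding values rested mostly on EEF2. The EEF1A1 coding site in replicate 2 had an A+T share of 65.6%, above the median of the other coding sites. The coding sites of GNB2L1 (35.5%) and TPT1 (41.0%) in replicate 1 were below it, and EIF1 had none. These values by gene and annotation are given without a test.

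Reads per distinct read sequence, a measure of how often the same sequence was read again, had a median of 1.56, 1.56 and 1.56 at the sites of the 5 genes and of 1.75, 2 and 1.67 at the other mRNA sites. The mean difference was -0.247 ± 0.170 (SD, n = 3 libraries, exact sign-flip p = 0.25, adjusted 0.25). With at least 10 reads per site it was -0.0959 ± 0.327 (exact sign-flip p = 0.75). The AUH list does not give distinct reads.

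**Figure D4:**
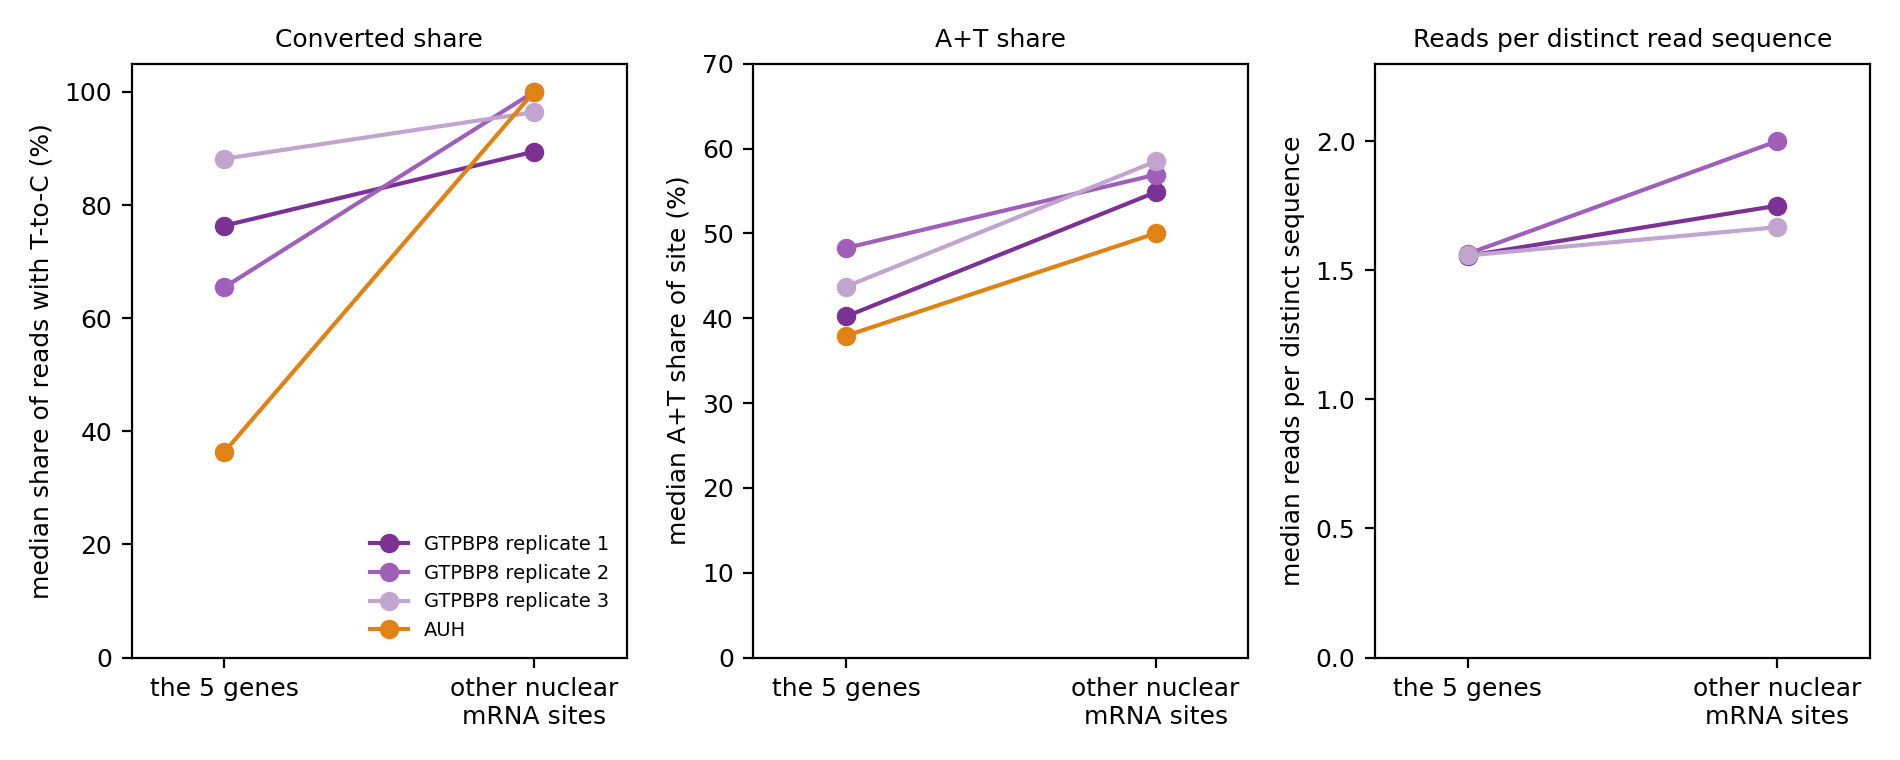
Medians over the sites of the 5 genes and over the other nuclear mRNA sites of the same library, joined by a line for each library, for the share of reads with a T-to-C conversion (%), the A+T share of the site (%) and the reads per distinct read sequence (GTPBP8 libraries only). The line rises towards the other mRNA sites in every library and panel, and the exact sign-flip p was 0.25 for each measure. All sites of the 5 genes are counted, including 3 AUH sites labelled intron, a label left out of the other sites.

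Most sites ended in G, the base after which RNase T1 cuts. This was so for 7 of 8, 11 of 14 and 5 of 10 sites of the 5 genes in GTPBP8 replicates 1, 2 and 3 and for 4 of 7 in AUH, against 60.3%, 60.6%, 68.7% and 58.9% of the other mRNA sites. By gene, 16 of 19 EEF2 sites and none of the 4 EIF1 sites ended in G. The motif ATTTA, the core of AU-rich elements, was searched on the strand of the mRNA and occurred in 1, 1, 2 and 0 sites in the order above, against 4.89%, 4.60%, 6.67% and 2.02% of the other mRNA sites. These sites lay at only 2 places, each counted in 2 replicates. They were the repeated 3′ UTR place of EEF2 (replicates 2 and 3) and the downstream place of EIF1 (replicates 1 and 3).

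The RefSeq start (GRCh38.p14) was read for all 5 genes. EEF2, EEF1A1, TPT1 and GNB2L1 begin with a C in a run of 7, 7, 7 and 9 pyrimidines, while EIF1 begins with a G. Of 27305 genes with a start in the reference, 1104 (4.04%) begin with a C in a run of at least 5 pyrimidines, and of the ribosomal protein genes 44 of 67 do. Among the other genes with an mRNA site this was so for 24 of 260 in replicate 2 and 14 of 112 in replicate 3. It is not given for replicate 1 and AUH, in which under 80% of the genes were matched to a start. The TOP-like start is a property of the reference, and among these 4 genes only EEF2 had a site within 40 nt of it.

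The 5 genes were set beside a list of 171 genes linked to cytosolic translation that includes them. Of this list, 16, 24 and 14 genes had a site in GTPBP8 replicates 1, 2 and 3 and 27 in AUH. These were 5.90%, 4.75% and 5.20% of the 271, 505 and 269 nuclear genes with a site in the GTPBP8 libraries and 5.33% of 507 in AUH. By role, a site was found for 1, 5, 2 and 3 of 9 genes of the elongation list, in the same order of libraries, a list that also holds EEF1E1 (found in replicate 2 and AUH), for 2, 6, 2 and 7 of 41 initiation factors, and for 0, 0, 0 and 2 of 4 termination factors, the AUH sites being in ETF1 and ABCE1. Of 83 ribosomal protein genes 9, 8, 6 and 12 had a site, of 12 ribosome-associated factors 3, 4, 4 and 2, and of 22 aminoacyl-tRNA synthetases 1, 1, 0 and 1. Ribosomal protein genes were the most numerous of these, but none of them had a site in all 3 GTPBP8 libraries.

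Outside the 5 genes, 11 genes of the lists had a site in at least 2 GTPBP8 libraries or in GTPBP8 and AUH. NACA, a subunit of the nascent polypeptide-associated complex at the ribosome exit, was the only 1 of them in all 3 GTPBP8 libraries, with 26, 43 and 9 reads at 4, 5 and 1 coding sites and no site in AUH. EIF4G2, a relative of the initiation scaffold eIF4G, had 61 and 24 reads at 6 and 3 sites in replicates 2 and 3 and 5 reads in AUH, and no site in replicate 1. NACA and EIF4G2 thus had several sites per library, as EEF2 did, and lay between EEF2 and EIF1 in reads in the GTPBP8 libraries with sites, apart from NACA in replicate 3, with 1 site and fewer reads than EIF1.

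The ribosomal protein genes each had 1 site per GTPBP8 library. RPS4X had 11 reads in replicates 2 and 3, RPS14 8 and 6 reads, RPS23 9 and 7 reads and RPL36 11 and 16 reads in replicates 1 and 3, and these 4 genes had overlapping sites in their 2 replicates. RPS6, RPL6, RPL18 and RPL37A, together with EEF1E1, which binds aminoacyl-tRNA synthetases, were found in 1 GTPBP8 library and in AUH. RPL6 had 13 reads in replicate 2 and was the only 1 of the 11 genes with a GTPBP8 site that overlapped an AUH site.

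For EEF2, EIF1 and GNB2L1, the pattern over the 4 libraries was compared with that of the 13 other genes found in all of them, by the mean absolute difference of log2 nuclear CPM. UHRF1BP1 (0.84) and KIAA0907 (1.02) were nearest to EEF2, MAZ (0.67) and SON (0.84) to EIF1, and SON (0.48) and EIF1 (1.10) to GNB2L1. UHRF1BP1 had 43, 123 and 93 reads with GTPBP8 and 5 with AUH, so it shared the order of magnitude with EEF2 in the GTPBP8 libraries but was lower in AUH. SON had 11, 10 and 6 reads with GTPBP8 and 20 with AUH, and like GNB2L1 it was lower in each GTPBP8 replicate than in AUH in nuclear CPM. For both genes the GTPBP8 values were under the smallest nuclear CPM listed in AUH (513), so this order was fixed once AUH had a site.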

How the data were processed

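fPAR-CLIP site lists of 3 GTPBP8::FLAG libraries and 1 AUH::V5 library were used. Per the submitters' processing notes reads were handled with bcl2fastq 2.17.1. For GTPBP8, the authors called sites per library with PARpipe and PARalyzer, and deposited, for each site, unnormalized counts of reads, converted reads and distinct read sequences. For AUH, the deposited reads with a conversion are expected counts, and the deposited fraction gives how much of the reads at a site was converted. AUH reads were taken as converted reads divided by this fraction, rounded. AUH starts were shifted to 1-based GRCh38 positions.

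Depth was the sum of reads over all sites (402701, 627603 and 403172 in the GTPBP8 libraries and 9684 in AUH), and sites on the mtDNA were left out of the nuclear total. Sites were taken by gene name, and overlap needed 1 nt on the same strand. Values of GTPBP8 are means with the SD between libraries. 3 measures were compared within libraries by a two-sided exact sign-flip test with Benjamini-Hochberg adjustment, tested on simulated data. Positions in genes, promoters and gene names came from RefSeq tables (GRCh38.p14).

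The members and lists were chosen with earlier results of these data known. Named besides the 5 genes were list genes with a site in at least 2 GTPBP8 libraries or in GTPBP8 and AUH, and the 2 nearest genes in pattern. Alternatives were other denominators, at least 10 reads per site, distinct reads, processed copies, 50% overlap, means, all nuclear sites and each replicate left out; leaving out EEF2 or sites with several gene names was added after seeing the data. Computations used pandas 2.3.3 and numpy 2.4.6 under Python 3.11.15, with statsmodels 0.14.6, scipy 1.17.1 and, for plots, matplotlib 3.10.9.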

Additional observations from a re-analysis of the deposited data

How the results depend on the processing

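Of 52 recomputed values, those without a test are counts, shares or ratios that cannot be negative. A change of sign was therefore possible for the tested differences alone. Among the values without a test, 10 moved by more than the spread between libraries or, for the number of sites, 1.5 times. The 21 recomputed tested differences kept their direction in the mean over libraries, though not always in each library. Of them, 8 moved by over 1.5 times. The converted share ranged from -23.8 to -9.77 (mean over sites), the A+T share from -14.7 to -1.23 (without EEF2) and the reads per distinct sequence from -0.365 to -0.0959 (at least 10 reads). For all 5 genes, the CPM of all site reads (260.2) became a nuclear CPM of 4289.9 and, counting distinct read sequences over all sites, 476. For EEF2 (179.7) they were 3006 and 327. The ratio of GTPBP8 to AUH (0.0573) became 0.760 with nuclear sites and 0.0995 with at least 10 reads per site, a minimum that lowered the sites per GTPBP8 library from 10.7 to 5.33 and the share overlapping between replicates from 31.2% to 20.4%. Leaving out 1 replicate gave overlap shares from 9.82% (without replicate 3) to 25.7% (without replicate 1), with 11.2% without replicate 2. Fewer libraries then remain to overlap with, and whether this lowered the shares was not tested. All 3 tests missed 0.05 under every alternative and could not pass it with 3 libraries (smallest p 0.25, and 0.5 with 2). Without the sites of several names the ratio to AUH was 0.0764 over all site reads. The distinct-read ratio to AUH was not run because the AUH list has no such column. No paired analysis was possible because AUH has 1 library. Depth limits AUH most: 1 read there is a nuclear CPM of 128, against 30.6 to 37.5 in the GTPBP8 libraries.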

Other observations

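The mRNAs of the tagged proteins had few sites. GTPBP8 itself had 1 coding site of 13 reads in GTPBP8::FLAG replicate 2 and no listed site in replicates 1 and 3. AUH had 2 sites of 7 and 5 reads in the AUH::V5 library. In the GTPBP8 libraries the single sites of EIF1, GNB2L1, TPT1 and EEF1A1 had 5 to 17 reads, a range that holds the GTPBP8 site of 13 reads. In AUH, those of EIF1 and GNB2L1 had 5 or 6 reads, so the AUH site of 7 reads was above them. The sites of the tagged proteins were below the largest EEF2 site of the same library, with 63 reads in GTPBP8 replicate 2 and 11 in AUH.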
